A study of Homo sapiens with 18 samples.

Results

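The experiment described here asked whether the transcriptional response to cytarabine differed between U2OS cells that overexpress mutant DNMT3A (MUT) and U2OS cells that carry the empty vector MigR1 (EV). U2OS is an established human osteosarcoma line, and neither the promoter that drives the transgene nor the number of clones per line is given in the sources used here. Of the 18 libraries of the series, 12 belong to this comparison, with 3 libraries in each of 4 groups: EV untreated, EV after 24 h with 10 µM cytarabine (Ara-C), MUT untreated and MUT after 24 h with 10 µM cytarabine. The other 6 libraries come from cells that overexpress wild-type DNMT3A (WT) and entered the same statistical fit. The substitution is R882C in the series text but R882H in the sample labels, and the name MUT is used throughout. The series text also calls the control cells vehicle-treated, whereas the labels call them untreated. With 1 MUT line and 1 EV line, the effect of the mutant protein and other differences between these lines cannot be told apart. The cells were plated as biological triplicates. The p-values rest on the spread between replicate cultures, estimated once per gene over all 18 libraries, WT included, and not for each group apart.

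For every gene the response in a line was its log2 fold change from untreated to treated cells, and the difference in response was the MUT response minus the EV response. A positive difference therefore means that cytarabine moved a gene further up, or less far down, in MUT than in EV. Of the 25296 genes in the deposited table, 18226 passed the filter on low counts and were tested. A gene is called below when its Benjamini-Hochberg adjusted p in the edgeR quasi-likelihood test was under 0.05. Levels are given in CPM, counts scaled to a common library total.

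Cytarabine is a cytidine analogue that enters cells through nucleoside transporters, is phosphorylated first by deoxycytidine kinase (DCK) and is then built into growing DNA strands, where it stalls replication forks. Stalled forks activate checkpoint kinases and p53, which raise genes of cell cycle arrest such as CDKN1A and hold cells back from mitosis. DNMT3A places new methyl groups on cytosines of CpG dinucleotides, and substitutions in its catalytic domain are frequent in acute myeloid leukaemia, a disease treated with cytarabine.

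Library totals over the 12 libraries ran from 15391484 to 21850378 estimated counts. DNMT3A itself (chromosome 2, 25227855 to 25342591, minus strand) was at 26.9, 27.5 and 26.2 CPM in the untreated EV libraries and at 499.7, 615 and 254 CPM in the untreated MUT libraries, and treated cells had 47.1, 49.6 and 45.5 CPM in EV and 532, 515 and 525 CPM in MUT. All MUT libraries lay above all EV libraries, and the 3 untreated MUT libraries lay far apart from each other. Its difference in response was -0.62 (adjusted p 0.269, edgeR). Counts per gene do not separate the overexpressed DNMT3A from the cells' own gene, so this value does not give the response of either. Replicates of untreated MUT had a common biological coefficient of variation of 0.216, those of treated EV 0.133, those of treated MUT 0.0696 and those of untreated EV 0.0398. Untreated MUT replicates 2 and 3 deviated from their group in opposite directions with exonic length. Exonic length is the union of all annotated exons of a gene and not the length of a single transcript. Genes with a mean log2 CPM of 3 or more were split by exonic length into 4 groups of 2657 to 2660 genes. Over the shortest group the median deviation of replicate 3 was 0.18 (log2) and that of replicate 2 was -0.11. Over the longest group they were -0.10 and 0.090. Treated EV replicates 1 and 2 also lay apart over the longest group, at -0.086 and 0.079. Over the shortest group these treated EV libraries were at 0.011 and -0.030. Of the osteoblast lineage markers, RUNX2 (29.6 to 53.2 CPM), ALPL (7.34 to 14.3 CPM), COL1A1 (139 to 294 CPM) and SPARC (805 to 1171 CPM) were present in all 12 libraries, COL1A2 was low (0.29 to 2.39 CPM) and BGLAP reached at most 7.77 counts. SP7 and IBSP were not analysed here. The leukocyte gene PTPRC stayed at or below 1.41 CPM, SPI1 at or below 10 counts and the endothelial gene PECAM1 at or below 6 counts. Other markers of blood, endothelial, epithelial and neural cells were detected, some at levels within the range of ALPL, and reached 8.66 CPM for CD34, 6.37 CPM for CDH5, 4.17 CPM for VWF, 5.18 CPM for CDH1, 4.01 CPM for EPCAM and 11.6 CPM for RBFOX3. Summed levels ran from 683 to 1012 CPM over 9 tested epithelial markers and from 188 to 302 CPM over 9 tested neural markers. Those of 12 tested osteoblast markers ran from 1152 to 1614 CPM.

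Many genes changed in the same direction in both lines. Cytarabine changed 8940 genes in EV (49.1% of those tested), of which 4758 rose (26.1%) and 4182 fell (22.9%), and 10257 genes in MUT (56.3%), of which 5543 rose (30.4%) and 4714 fell (25.9%). Of these, 4016 genes rose in both lines and 3451 fell in both. Across all 18226 genes the correlation between the EV and MUT responses was 0.721 (Pearson's r, across genes, which are not independent replicates), and it was 0.908 across the 9051 genes with a higher mean level (mean log2 CPM of 4 or more). The 95% interval of the difference lay within 1 log2 unit of zero for 83.2% of the 7467 genes called in both lines in the same direction, and within 0.5 log2 units for 49.9% of them. In bulk RNA, a change in the share of cells of one kind and a change in RNA per cell cannot be told apart.

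The responses that both lines shared tended to be a little larger in MUT. Among the 4016 genes that rose in both lines, the median response was 0.87 in EV and 0.96 in MUT, and 61.7% of these genes had the larger rise in MUT. Among the 3451 genes that fell in both lines, the median was -0.48 in EV and -0.57 in MUT, and 66.5% fell further in MUT. These shares were also read under other scalings of the libraries and with the trend with exonic length removed. They stayed between 57.9% and 61.7% for rising genes and between 66.4% and 73.1% for falling genes. With 1 library left out they ran from 57.2% to 67.0% for rising genes and from 60.3% to 75.5% for falling genes. The median difference over all tested genes was 0.00018.

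**Figure D1:**
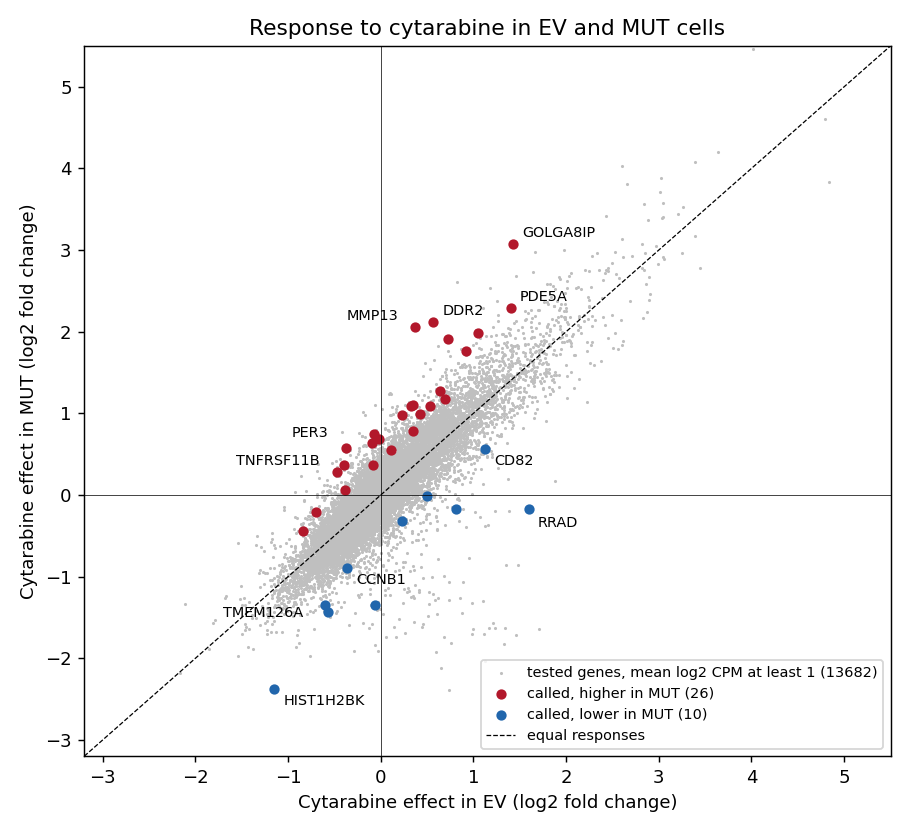
Cytarabine response in MUT (vertical axis, log2 fold change) against the response in EV (horizontal axis, log2 fold change) for the 13682 tested genes whose mean log2 CPM was 1 or more. Grey points are all such genes, red points are the 26 called genes with a higher and blue points the 10 with a lower response in MUT, and the dashed line marks equal responses. Most points lie near the line, and the called genes sit at the edges of the cloud.

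The difference in response was called for 39 genes (0.214% of those tested), of which 28 (0.154%) had a higher and 11 (0.0604%) a lower response in MUT than in EV. At an unadjusted p under 0.05 there were 2882 genes (15.8%), of which 1408 were higher (7.73%) and 1474 lower (8.09%). By the sign of the fitted responses, called or not, the response was stronger in the same direction in MUT for 22 of the 39 genes. It was weaker for 3 and of opposite sign in the 2 lines for 14. Both responses were called for 5 of these 14, and some of the uncalled ones were near zero. Levels in untreated cells differed between MUT and EV for 34 of the 39 genes, and those in treated cells for 21 (adjusted p under 0.05, edgeR). These comparisons use the same libraries as the difference in response, and the shares over all tested genes are not given here. A class therefore does not tell a changed drug response from unequal untreated levels. With the length trend removed, 32 of the 39 genes kept their class, and with upper-quartile factors 35 did. In 13 genes cytarabine raised the transcript in both lines and more so in MUT, and 9 rose in MUT without a called change in EV. The treated libraries of the 2 lines, each taken relative to its own line's untreated mean, did not overlap for any of the 39 genes, as was the case for 36.9% of all tested genes. The balance of directions depended on the scaling and the filter, with 31 higher and 36 lower genes with upper-quartile factors, 26 and 28 with RLE factors, 185 and 369 in DESeq2, and 42 and 86 among genes with a mean of at least 50 counts. Genes named below outside the selection rule are named because they are among these 39. All 39 genes kept the sign of their difference in every alternative.

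The number of called genes rested on single libraries. Without untreated MUT replicate 1, 2 or 3 it was 666, 335 or 101, and all 39 genes were among them each time. Without untreated EV replicate 1, 2 or 3 it was 9, 11 or 8, without treated EV replicate 1, 2 or 3 it was 17, 71 or 22, and without treated MUT replicate 1, 2 or 3 it was 18, 9 or 8. Only DDR2, CAVIN2, GOLGA8IP, INTS2 and RRAD were called in all 12 of these fits. With untreated MUT replicates 2 and 3 both left out, 16 genes were called, 9 of them among the 39. These 9 were DDR2, CAVIN2, INTS2, RRAD, NRP1, PRKCE, TNFRSF11B, CD82 and AL160272.2.

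DDR2 had the smallest adjusted p of the difference. DDR2 (chromosome 1, 162631373 to 162787401, plus strand) encodes discoidin domain receptor 2, a receptor tyrosine kinase that binds fibrillar collagen. It measured 25.7, 27.1 and 32.1 CPM in untreated EV and 36, 45.9 and 43.8 CPM in treated EV, while MUT had 3.96, 4.28 and 4.0 CPM untreated and 15.9, 19.3 and 17.8 CPM treated. Every MUT library lay below every EV library, and the treated MUT libraries lay above the untreated ones by far more than their spread. The response was 0.57 in EV and 2.11 in MUT, a difference of 1.55 (SE 0.173, 95% interval 1.18 to 1.91, adjusted p 0.000553 in the edgeR test). The largest adjusted p over the 12 fits without a library was 0.00339. DDR2 was also the single gene called when a minimum absolute log2 fold change of 0.5 was required (adjusted p 0.012) and the single gene called in a fit of the 12 EV and MUT libraries alone (adjusted p 0.0111), both in edgeR. Among the other settings DDR2 lost its call in limma voom with group weights, where its adjusted p was 0.078.

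CAVIN2 (chromosome 2, 191834302 to 191847256, minus strand), which encodes a coat protein of caveolae, measured 35.1, 37 and 36 CPM in untreated and 42.1, 46.2 and 47.2 CPM in treated EV libraries. In MUT it had 26.7, 28.4 and 26.1 CPM untreated and 54.5, 60.8 and 57.8 CPM treated. Untreated MUT libraries were the lowest and treated MUT libraries the highest, with no overlap between any of the 4 groups. The difference in response was 0.77 (SE 0.0937, adjusted p 0.00107, edgeR), with responses of 0.33 in EV and 1.09 in MUT. CAVIN2 was not called in an edgeR fit of the 12 EV and MUT libraries alone, where its adjusted p was 0.0632.

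The promoters of these genes are shown because DNMT3A acts on CpG dinucleotides and the windows of DDR2 and CAVIN2 hold few of them. Each line gives the 250 bases before the RefSeq transcription start on the gene's own strand (GRCh38.p14), at chr1:162630613-162630862 on the plus strand for DDR2 and chr2:191847089-191847338 on the minus strand for CAVIN2. The DDR2 window holds 0 CpG dinucleotides and the CAVIN2 window holds 4, against a median of 11 over the windows of 27305 genes. Those are all genes with a RefSeq window and were not restricted to the tested genes. No DNA methylation was measured here. The deposited table places the start of DDR2 downstream of its window and that of CAVIN2 inside it.
DDR2: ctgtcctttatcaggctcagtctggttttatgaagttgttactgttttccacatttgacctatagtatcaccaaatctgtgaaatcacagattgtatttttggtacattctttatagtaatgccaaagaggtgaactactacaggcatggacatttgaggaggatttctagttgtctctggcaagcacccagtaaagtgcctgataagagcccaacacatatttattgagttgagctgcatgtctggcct
CAVIN2: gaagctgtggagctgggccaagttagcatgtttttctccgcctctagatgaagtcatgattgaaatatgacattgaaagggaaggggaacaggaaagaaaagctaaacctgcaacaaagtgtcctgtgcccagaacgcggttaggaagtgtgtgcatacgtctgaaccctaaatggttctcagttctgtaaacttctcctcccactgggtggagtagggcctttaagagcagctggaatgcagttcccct
Few CpG dinucleotides were also present in the windows of F2RL2 (3), FAM198B (3) and SLC16A7 (1), whereas those of PER3 and CHML held 39 and that of RELN held 43. Over the 19 of the 28 genes with a higher response that matched a RefSeq window the median was 23. These genes were singled out after their counts were seen.

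Several further genes rose in both lines and rose more in MUT. GOLGA8IP (chromosome 15, 22606022 to 22617855, minus strand), which belongs to the golgin A8 family of pseudogenes, went from 5.78, 7.13 and 7.38 to 17, 17.2 and 20.2 CPM (EV) and from 1.86, 1.13 and 1.14 to 11.5, 10.8 and 13.1 CPM (MUT). MUT libraries were below EV libraries in each treatment, and the difference in response was 1.65 (SE 0.222, adjusted p 0.0031, edgeR). This value is uncertain because near-identical family members can share reads with it. With untreated MUT replicates 2 and 3 both left out the difference was 1.21 and its adjusted p 0.0671.

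Genes of the cell surface and the surrounding matrix were among those that rose more in MUT. NRP1 (chromosome 10, 33177492 to 33336263, minus strand), a co-receptor for semaphorins and vascular endothelial growth factor, had 30.3, 30 and 31 CPM in untreated EV, 36.6, 38.6 and 40.8 CPM in treated EV, 15, 17.9 and 13.9 CPM in untreated MUT and 33.8, 32.2 and 33.9 CPM in treated MUT. Its untreated MUT libraries were the lowest of all, and its treated MUT libraries lay between the untreated and the treated EV libraries. The difference was 0.75 (SE 0.122, adjusted p 0.0166, edgeR), and it passed in 10 of 12 fits without a library. F2RL2 (chromosome 5, 76615482 to 76623435, minus strand), a thrombin receptor of the protease-activated family, rose from 31.7 ± 2.27 to 60 ± 5.65 CPM (EV) and from 21 ± 2.1 to 71.7 ± 3.19 CPM (MUT) (SD, n = 3 each). Its difference of 0.85 (SE 0.133, adjusted p 0.0125, edgeR) lost the call only without untreated EV replicate 3, at 0.79 with an adjusted p of 0.0525, among the 12 fits without a library. MATN2 (chromosome 8, 97868840 to 98036717, plus strand), a matrilin of the extracellular matrix, rose from 8.73 ± 0.294 to 18.1 ± 1.21 CPM (EV) and from 2.63 ± 0.199 to 10.5 ± 1.1 CPM (MUT), a difference of 0.93 (adjusted p 0.0219, edgeR).

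MMP13 (chromosome 11, 102942995 to 102955735, minus strand), a collagenase that cleaves fibrillar collagen, had 4.5, 3.68 and 2.83 CPM in untreated EV and 3.72, 4.99 and 5.52 CPM in treated EV. In MUT it had 1.3, 1.13 and 1.09 CPM untreated and 5.49, 4.12 and 5.14 CPM treated. Untreated MUT libraries were the lowest, and the 2 treated groups overlapped. The response was 2.06 in MUT (adjusted p 8.87e-07) and 0.37 in EV, where it was not called (adjusted p 0.181, both edgeR). The difference of 1.69 (SE 0.332, adjusted p 0.0384, edgeR) passed in 4 of 12 fits without a library, with a largest adjusted p of 0.108.

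The other genes that rose in both lines and more in MUT covered signalling enzymes, adhesion and secretory proteins. RPS6KA6, a ribosomal S6 kinase (difference 1.19), rose from 2.48 to 9.36 CPM (MUT) and from 7.02 to 11.6 CPM (EV). PDE5A, the cyclic GMP phosphodiesterase (0.88), rose from 8.12 to 39.6 CPM (MUT) and from 14.6 to 38.7 CPM (EV). FAM198B (0.64), the desmosomal protein PKP2 (0.57), FAM84B (0.56), BRI3BP (0.48) and FKBP9, a prolyl isomerase of the endoplasmic reticulum (0.44), completed the 13 genes. For BRI3BP the untreated levels of the lines were alike (63.6 ± 1.8 CPM in EV and 63.6 ± 2.89 CPM in MUT), and the treated levels were 103 ± 4.18 and 143 ± 1.55 CPM. For the other 12 of these genes the untreated MUT mean lay below the untreated EV mean, a comparison that uses the same untreated libraries as the difference in response. Several of these calls were lost without a single library, with adjusted p up to 0.117 for RPS6KA6, 0.11 for PDE5A and 0.106 for FAM198B in edgeR fits without a library.

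**Figure D2:**
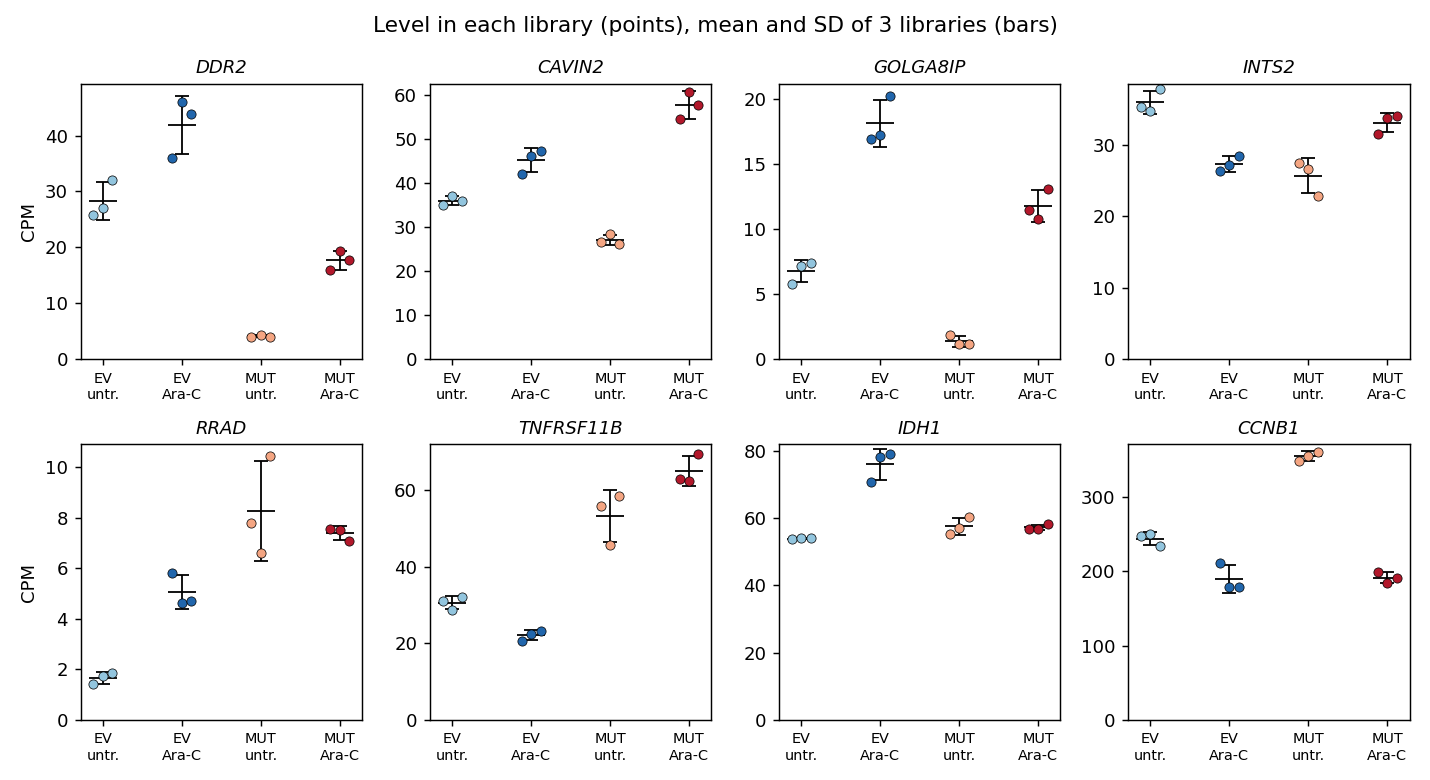
Level in each library (points, CPM on the vertical axis) for 8 called genes in the 4 groups, with the mean and SD of 3 libraries as bars. DDR2, CAVIN2 and GOLGA8IP rise more steeply in MUT, INTS2 and TNFRSF11B move in opposite directions, RRAD and IDH1 rise in EV only by the test, and CCNB1 falls further in MUT to a treated level like that in EV.

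Responses of opposite sign passed the test in both lines for 22 genes, 16 that fell in EV and rose in MUT and 6 that rose in EV and fell in MUT. The difference itself was called for 5 of the 22. INTS2 (chromosome 17, 61865367 to 61928017, minus strand), a subunit of the Integrator complex that acts on nascent RNA, fell in EV from 35.3, 34.8 and 37.9 to 26.3, 27.2 and 28.5 CPM and rose in MUT from 27.5, 26.6 and 22.9 to 31.6, 33.9 and 34 CPM. Untreated and treated libraries did not overlap in either line. The responses were -0.40 and 0.37, and the difference was 0.76 (SE 0.109, adjusted p 0.00444, edgeR; largest adjusted p without a library 0.0289).

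TNFRSF11B (chromosome 8, 118923557 to 118952201, minus strand), which encodes osteoprotegerin, a decoy receptor for the osteoclast factor RANKL, measured 31, 28.8 and 32.1 CPM in untreated and 20.6, 22.5 and 23.1 CPM in treated EV. In MUT it had 55.9, 45.6 and 58.5 CPM untreated and 62.9, 62.4 and 69.5 CPM treated. All MUT libraries were above all EV libraries, and treatment widened that gap. The gene fell in EV (-0.47) and rose in MUT (0.28), with a difference of 0.75 (SE 0.124, adjusted p 0.017, edgeR). The adjusted p was over 0.05 in edgeR fits without untreated EV replicate 1 (0.75, adjusted p 0.0574), untreated EV replicate 3 (0.72, adjusted p 0.0642) or treated MUT replicate 3 (0.70, adjusted p 0.0694).

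PER3 (chromosome 1, 7784320 to 7845178, plus strand), a component of the circadian clock, fell in EV from 14.4, 14.6 and 15.7 to 10.4, 11.7 and 12.3 CPM and rose in MUT from 12.8, 10.9 and 9.71 to 15.4, 16.1 and 18.4 CPM. Its difference was 0.95 (SE 0.166, adjusted p 0.0219, edgeR) and passed in 6 of 12 fits without a library. In the reverse sense, QPCTL (chromosome 19, 45692483 to 45703990, plus strand), a glutaminyl cyclase of the Golgi, rose in EV from 31.3 ± 1.52 to 36.7 ± 0.957 CPM and fell in MUT from 31.6 ± 2.0 to 25.3 ± 2.4 CPM, a difference of -0.55 (adjusted p 0.0384, edgeR). Untreated levels of QPCTL overlapped between the lines, and its treated MUT libraries lay below all treated EV libraries. SNX22, a sorting nexin (-0.78, adjusted p 0.061), and TIGD1 (0.92, adjusted p 0.0699) also responded with opposite sign in both lines, and their differences were not called in edgeR. Low counts limited RPL21P75 (-2.24, adjusted p 0.103, edgeR), a ribosomal protein pseudogene that shares sequence with its parent family, and TRIM49B, which was at 0 CPM in all treated MUT libraries.

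RRAD (chromosome 16, 66921679 to 66925645, minus strand), a small GTPase of the RGK family that p53 can activate, had the most negative difference among called genes whose mean log2 CPM was 1 or more. It rose in EV from 1.4, 1.75 and 1.84 to 5.82, 4.62 and 4.7 CPM (response 1.60, adjusted p 1.43e-06), and in MUT it went from 7.77, 6.6 and 10.5 to 7.56, 7.52 and 7.06 CPM (-0.17, adjusted p 0.401, not called; both edgeR). Untreated MUT already lay above treated EV in all libraries. The difference was -1.76 (SE 0.253, adjusted p 0.00444, edgeR; largest adjusted p without a library 0.0343).

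IDH1 and AAMDC likewise rose in EV and had no called change in MUT. IDH1 (chromosome 2, 208236227 to 208266075, minus strand), the isocitrate dehydrogenase that makes the 2-oxoglutarate used by TET demethylases, went from 53.8, 54.1 and 54 to 70.7, 78.2 and 79.2 CPM in EV. In MUT it measured 55.4, 57 and 60.5 CPM untreated and 56.7, 56.9 and 58.3 CPM treated. The 3 treated EV libraries stood above the other 9, which lay close together. The difference was -0.50 (SE 0.0953, adjusted p 0.0314, edgeR), and it passed in 5 of 12 fits without a library. AAMDC (chromosome 11, 77821109 to 77918433, plus strand) moved from 6.61 ± 0.315 to 11.6 ± 1.49 CPM (EV) and from 13.5 ± 0.793 to 11.9 ± 0.684 CPM (MUT), a difference of -0.99 (adjusted p 0.0219, edgeR).

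Another group rose in MUT and had no called change in EV. SLC16A7, a monocarboxylate transporter (chromosome 12, 59596067 to 59789856, plus strand), measured 16.7 ± 0.934 CPM in untreated and 28 ± 1.8 CPM in treated MUT, against 19.8 ± 1.23 and 18.9 ± 2.99 CPM in EV, with a difference of 0.82 (adjusted p 0.0219, edgeR). The difference was 0.71 for PRKCE, the epsilon isoform of protein kinase C, 0.75 for SPIN4, 0.72 for N4BP2, 0.45 for PM20D2 and 0.44 for CHML, a Rab escort protein. Their treated MUT means were 42.6, 62.3, 40.9, 57 and 140.4 CPM, against treated EV means of 32.5, 51.4, 36.2, 51.6 and 130.3 CPM. SKP2, the F-box protein that marks the cell cycle inhibitor p27 for destruction, fell in EV (-0.39) and had no called change in MUT (0.058), a difference of 0.45 (adjusted p 0.0399, edgeR).

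Only 3 called genes responded less in MUT than in EV in the same direction. CD82 (chromosome 11, 44564427 to 44620364, plus strand), a tetraspanin and p53 target, rose from 39.4, 40.3 and 33.9 to 76.8, 88.6 and 82.9 CPM (EV) and from 51.6, 45.5 and 51.5 to 78.3, 73.4 and 68.4 CPM (MUT). Treated levels of the lines overlapped and untreated levels were higher in MUT. The difference was -0.56 (SE 0.11, adjusted p 0.0384, edgeR), and in WT cells the gene rose further, by 1.89. ERBIN, a scaffold that binds the receptor ERBB2 (-0.70 in EV, -0.21 in MUT, difference 0.49), and ZFP36L1, which directs decay of AU-rich messenger RNAs (-0.84 in EV, -0.44 in MUT, difference 0.40), fell in both lines and less so in MUT. These 3 calls passed in 4, 4 and 3 of the 12 fits without a library.

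The 5 genes that fell further in MUT included cyclin B1 and a histone. CCNB1 (chromosome 5, 69167010 to 69178246, plus strand) encodes cyclin B1, the partner of CDK1 at entry into mitosis. It measured 248, 250.5 and 234 CPM in untreated and 211, 179 and 179 CPM in treated EV, and 348, 356 and 361 CPM in untreated and 199, 184 and 191 CPM in treated MUT. Untreated MUT libraries were above untreated EV libraries, and the treated libraries of the lines overlapped. CCNB1 fell in both lines, with responses of -0.36 in EV and -0.89 in MUT and a difference of -0.53 (SE 0.0963, adjusted p 0.0246, edgeR), which passed in 6 of 12 fits without a library.

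HIST1H2BK (chromosome 6, 27146418 to 27146799, minus strand), a clustered histone H2B gene, measured 26.9, 23.4 and 21.7 CPM in untreated and 14.5, 8.62 and 9.24 CPM in treated EV, and 43.4, 44 and 36 CPM in untreated and 8.3, 8.38 and 7.15 CPM in treated MUT. It was high in untreated MUT and low in treated MUT, with every treated MUT library below every treated EV library. The difference was -1.22 (SE 0.244, adjusted p 0.0399, edgeR; largest adjusted p without a library 0.142), and the value is uncertain because its paralogs are close in sequence. TMEM126A, a mitochondrial inner membrane protein, fell from 23.6 ± 1.54 to 15.9 ± 0.59 CPM (EV) and from 32.7 ± 4.91 to 12.1 ± 0.838 CPM (MUT) (difference -0.87, adjusted p 0.017, edgeR). PPP1R14B, an inhibitor of protein phosphatase 1, fell from 218 ± 5.99 to 144 ± 16.8 CPM (EV) and from 401 ± 49.9 to 157 ± 11.9 CPM (MUT) (difference -0.75, adjusted p 0.0445, edgeR). C2orf76 fell in MUT alone by the test, from 7.17 ± 1.46 to 2.83 ± 0.171 CPM, against 3.63 ± 0.308 and 3.47 ± 0.482 CPM in EV (difference -1.29, adjusted p 0.0314, edgeR).

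The promoters of CCNB1 and HIST1H2BK are shown because the CCAAT box, the element bound by the factor NF-Y, is a known feature of mitotic and histone promoters. The windows are again the 250 bases before the RefSeq start (GRCh38.p14), at chr5:69166900-69167149 on the plus strand for CCNB1 and chr6:27146859-27147108 on the minus strand for HIST1H2BK, which RefSeq lists as H2BC12. Capitals mark CCAAT read on either strand, so that ATTGG is CCAAT on the opposite strand. The CCNB1 window holds 2 matches and the HIST1H2BK window holds 6, and the deposited table places the start of CCNB1 inside its window.
CCNB1: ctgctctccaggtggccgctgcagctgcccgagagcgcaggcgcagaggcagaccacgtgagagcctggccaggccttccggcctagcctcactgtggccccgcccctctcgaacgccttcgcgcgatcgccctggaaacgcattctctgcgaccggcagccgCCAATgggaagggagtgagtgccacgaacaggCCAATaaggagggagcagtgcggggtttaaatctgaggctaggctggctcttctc
HIST1H2BK: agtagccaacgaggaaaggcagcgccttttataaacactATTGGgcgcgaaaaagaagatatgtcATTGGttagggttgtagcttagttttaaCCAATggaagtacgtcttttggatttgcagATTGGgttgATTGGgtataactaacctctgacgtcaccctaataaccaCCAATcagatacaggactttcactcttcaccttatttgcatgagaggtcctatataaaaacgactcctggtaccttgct
A match was present in 33.0% of the 27305 windows, which were not restricted to tested genes. It was present in 7 of the 9 windows of genes with a lower response in MUT and in 5 of the 19 windows of genes with a higher response. QPCTL had 4 matches, and C2orf76, AAMDC, TMEM126A and PPP1R14B had 1 each. These counts describe letters and were not tested, since the genes were few.

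RELN, AC125611.3 and AL160272.2 were called with a mean log2 CPM below 1. The fitted fold change of RELN in MUT depends on the small count that the fit adds. RELN (chromosome 7, 103471784 to 103989517, minus strand), the secreted glycoprotein reelin, had 0 counts in all 3 untreated MUT libraries and 0.395, 1.24 and 0.872 CPM in the treated ones, against 6.48, 4.21 and 4.24 CPM in untreated and 5.18, 6.49 and 6.67 CPM in treated EV. Against a floor of 3 counts per library, or 0.170 CPM, the treated MUT mean of 0.837 CPM was at least 4.92-fold higher, while in EV the response was not called (0.30, adjusted p 0.419, edgeR). All treated MUT libraries stayed below all EV libraries. AC125611.3, an antisense RNA gene (chromosome 12, 49265156 to 49273307, minus strand), was erratic between replicates, with 14.4, 0.0624 and 0.171 CPM in treated EV and 6.22, 26 and 44.6 CPM in untreated MUT, and its largest adjusted p without a library was 0.479 (edgeR). Whether the counting used strand is not given in the sources used here, so reads of AC125611.3 and of the gene on the opposite strand cannot be told apart. AL160272.2 (chromosome 9, 117704157 to 117877479, plus strand) moved from 0.10, 0.44 and 0.685 to 1.98, 2.59 and 2.96 CPM (MUT) and from 1.93, 1.81 and 1.84 to 0.44, 1.5 and 1.88 CPM (EV).

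**Figure D3:**
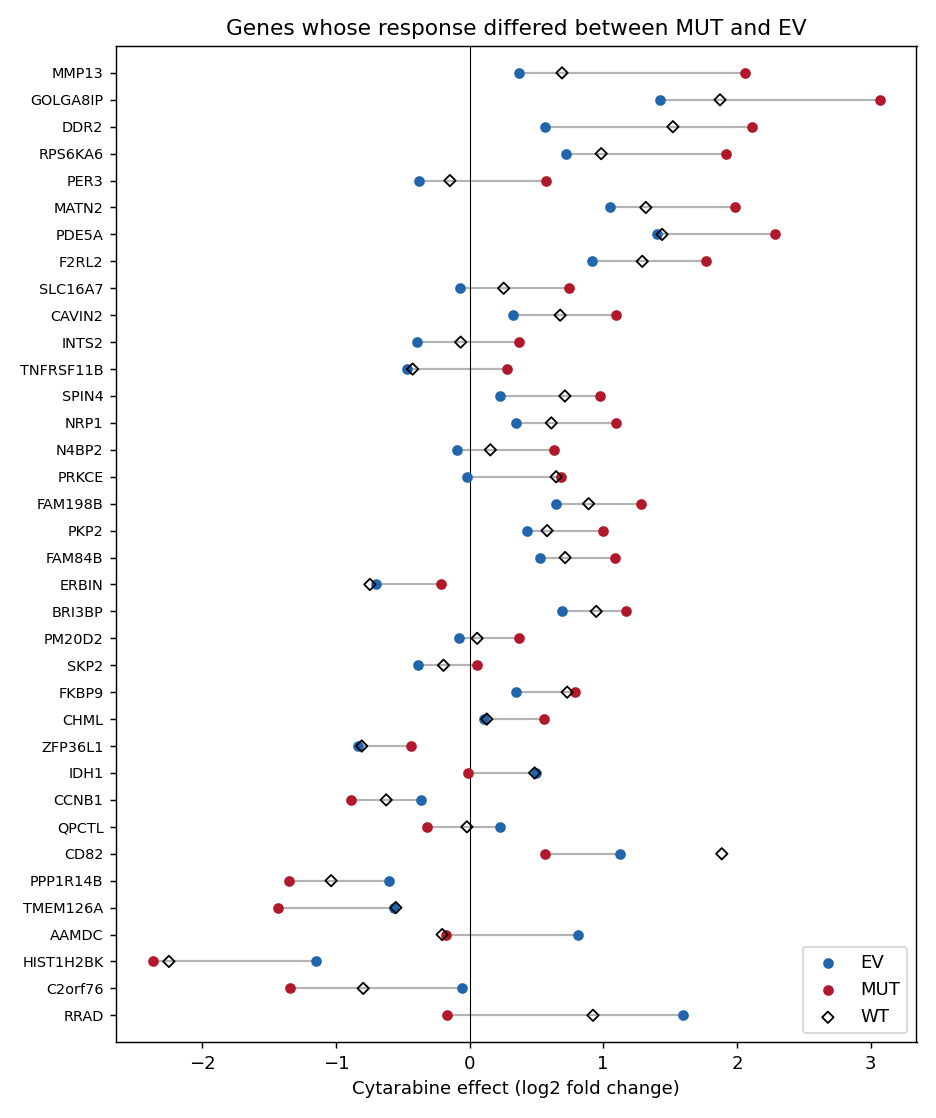
Response to cytarabine (horizontal axis, log2 fold change) in EV, MUT and WT for 36 of the 39 called genes (vertical axis), leaving out RELN, AC125611.3 and AL160272.2. Points are the fitted responses, and most WT points lie between those of EV and MUT.

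In the line that overexpresses wild-type DNMT3A, the response lay between those of EV and MUT for 35 of the 39 genes, and it was nearer to EV for 29 and nearer to MUT for 10. These counts are a description, since the genes were chosen for the distance between EV and MUT. DDR2 rose by 1.52 in WT, against 0.57 in EV and 2.11 in MUT. Its WT response exceeded that in EV by 0.95 (adjusted p 0.0166, edgeR). Its MUT response exceeded that in WT by 0.59, which was not called (adjusted p 0.121, edgeR). The WT response of HIST1H2BK was -2.25 against -1.15 in EV and -2.37 in MUT, and that of TNFRSF11B was -0.43 against -0.47 and 0.28. For HIST1H2BK neither WT minus EV (-1.10, adjusted p 0.0532) nor MUT minus WT (-0.12, adjusted p 0.858) was called in edgeR. For TNFRSF11B MUT minus WT was called (0.71, adjusted p 0.00803) and WT minus EV was not (0.044, adjusted p 0.952, both edgeR). CD82 was among the 4 genes outside the range of the other lines. These values share the EV and MUT libraries with the difference itself.

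Groups of genes were then read against all tested genes, of which 9121 of 18226 had a positive difference with a median of 0.00018. At an unadjusted p under 0.05 in edgeR, 7.73% of all tested genes were higher and 8.09% lower. In EV 26.1% of them rose and 22.9% fell, and in MUT 30.4% rose and 25.9% fell. The edgeR counts of each list below are to be read beside these shares. Most p53 targets rose in both lines. Of 33 tested p53 targets, 21 rose and 1 fell in EV, and 25 rose and 1 fell in MUT. The difference was called for CD82 alone, and at an unadjusted p under 0.05 it was higher for 9 and lower for 1, with a median of 0.14 and 24 positive differences. GDF15, a secreted stress cytokine, went from 33.9, 32.7 and 36.2 to 301, 248 and 289 CPM (EV) and from 27.1, 16.9 and 29 to 370.1, 341 and 374 CPM (MUT). All treated MUT libraries were above all treated EV libraries, but the difference of 0.86 (SE 0.185) had an adjusted p of 0.055 in edgeR. DESeq2 called 4 p53 targets as higher and 1 as lower, and edgeR with the length trend removed 3 and 1, where the median was 0.088.

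The median difference was above zero for DNA replication genes and below zero for genes of mitosis. Of 45 replication and E2F target genes, 4 rose and 15 fell in EV, and 13 rose and 12 fell in MUT. No member's difference was called in edgeR, against 4 higher in DESeq2 and 1 each in limma voom with library weights, edgeR with the length trend removed and edgeR without untreated MUT replicate 3, and 13 were higher and 0 lower at an unadjusted p under 0.05 (median 0.11, 35 positive). CCNE2, the S phase cyclin E2, rose in MUT from 11.2 ± 1.98 to 23.3 ± 2.34 CPM and was at 9.41 ± 1.97 and 10.5 ± 0.597 CPM in EV, a difference of 0.89 (adjusted p 0.06, edgeR). E2F2, a transcription factor of S phase entry, had responses of -0.12 in EV and 0.43 in MUT (difference 0.55, adjusted p 0.0757, edgeR).

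Of 43 genes of G2 and mitosis, 22 fell and 2 rose in EV, and 29 fell and 3 rose in MUT. CCNB1 was the only member whose difference was called in edgeR, and 16 members were lower and 0 higher at an unadjusted p under 0.05 (median -0.12, 8 positive). DESeq2 called 9 members as lower, limma voom with library weights 6, and edgeR with the length trend removed 0, where 16 were lower at an unadjusted p under 0.05, against 8.49% of all tested genes in that fit. KIF20A, a kinesin of cytokinesis, had responses of -0.45 in EV and -0.90 in MUT (difference -0.45, adjusted p 0.0576, edgeR). CDC20, an activator of the anaphase-promoting complex, fell from 364 ± 5.97 to 161 ± 4.46 CPM (EV) and from 417 ± 44.1 to 139.8 ± 16.8 CPM (MUT) (difference -0.40, adjusted p 0.12, edgeR).

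Clustered histone genes had the lowest median of the lists, -0.48 over 19 members, of which 5 were positive. HIST1H2BK was called, 7 were lower and 0 higher at an unadjusted p under 0.05, and 8 fell and 1 rose in EV against 10 and 0 in MUT. HIST1H2BJ had 6.71 ± 0.559 and 6.23 ± 2.34 CPM in EV and fell from 7.96 ± 1.06 to 2.68 ± 0.794 CPM in MUT (difference -1.48, adjusted p 0.0537, edgeR). HIST1H1C, a linker histone, fell from 22.9 ± 1.45 to 12.3 ± 1.26 CPM (EV) and from 52.3 ± 9.78 to 16 ± 0.917 CPM (MUT) (difference -0.81, adjusted p 0.055, edgeR). The median was -0.26 with the length trend removed and -0.34 without untreated MUT replicate 3, and the median exonic length of these genes was 861 bases.

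Checkpoint and fork protection genes included 10 of 44 members that were higher and 0 lower at an unadjusted p under 0.05 (median 0.13, 33 positive). No member was called in edgeR, 2 were in DESeq2 and 0 in limma voom with library weights. FANCA, a core subunit of the Fanconi anaemia pathway, was at 52.3 ± 3.77 and 54.9 ± 2.79 CPM in EV and rose from 39.2 ± 6.1 to 57.3 ± 4.95 CPM in MUT (difference 0.47, adjusted p 0.12, edgeR). The median difference of these genes was 0.056 with the length trend removed and 0.078 without untreated MUT replicate 3, and their median exonic length was 7539.5 bases.

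Most matrix genes rose in both lines. Of 47 tested genes of collagen binding and matrix remodelling, 28 rose and 3 fell in EV, and 30 rose and 4 fell in MUT. DDR2 and MMP13 were the members with a called difference in edgeR, and 7 were higher and 3 lower at an unadjusted p under 0.05 (median 0.12). The median was 0.066 with the length trend removed and 0.064 without untreated MUT replicate 3. P4HA1, a prolyl hydroxylase for collagen, rose in EV from 89.8 ± 2.1 to 129.5 ± 3.31 CPM and was at 106 ± 8.57 and 111 ± 0.359 CPM in MUT (difference -0.46, adjusted p 0.0562, edgeR). It was called as lower with upper-quartile or RLE factors, with the length trend removed and in limma voom with library weights, which called 1 member as higher. DESeq2 called 1 member as higher and 2 as lower. DDR1, the other discoidin domain receptor, rose in both lines (0.87 in EV, 1.31 in MUT; difference 0.44, adjusted p 0.139, edgeR). Of 32 collagen genes 23 rose in EV and 26 in MUT, no difference was called, and 4 were higher at an unadjusted p under 0.05. Their median difference of 0.23 became 0.10 with the length trend removed and 0.14 without untreated MUT replicate 3. DESeq2 and limma voom with library weights called 0 collagen genes.

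Cholesterol synthesis genes had a median difference of -0.16 over 24 members, 7 of them positive. In EV 2 rose and 12 fell, and in MUT 2 rose and 15 fell. None was called in edgeR, 5 were lower in DESeq2, 2 in edgeR with the length trend removed and 1 in limma voom with library weights, and 11 were lower and 0 higher at an unadjusted p under 0.05. MVD, an enzyme of the mevalonate pathway, was at 58 ± 1.64 and 60.5 ± 1.1 CPM in EV and fell from 66.3 ± 8.08 to 49.1 ± 2.13 CPM in MUT (difference -0.49, adjusted p 0.0581, edgeR). FDFT1, squalene synthase, had responses of -0.061 in EV and -0.40 in MUT (difference -0.34, adjusted p 0.0973, edgeR).

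Of 25 targets of YAP, the effector of the Hippo pathway, 3 rose and 10 fell in EV while 7 rose and 4 fell in MUT. The median difference was 0.20 with 21 positive, and 0.12 without untreated MUT replicate 3. No member was called in edgeR, 1 was in DESeq2 and 0 in limma voom with library weights, and 6 were higher and 0 lower at an unadjusted p under 0.05. LATS2, a kinase that restrains YAP, fell in EV from 63.6 ± 3.41 to 49.3 ± 5.6 CPM and was at 70.2 ± 11.1 and 72.6 ± 2.55 CPM in MUT (difference 0.42, adjusted p 0.159, edgeR).

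The remaining lists held few differences. Interferon-stimulated genes rose in both lines, 22 of 33 in each, with 0 called differences in edgeR, 6 higher and 1 lower at an unadjusted p under 0.05 and a median of 0.078 (0.049 with the length trend removed). Of 31 polycomb subunits 18 fell in EV and 11 in MUT, with 0 called differences in edgeR, 6 higher and 1 lower at an unadjusted p under 0.05 and a median of 0.099 (0.047 with the length trend removed). Among 20 genes of DNA methylation and demethylation IDH1 was the called member, 4 were higher and 3 lower at an unadjusted p under 0.05, and the maintenance factors UHRF1 (0.40, adjusted p 0.147) and DNMT1 (0.32, adjusted p 0.174) fell in both lines with no called difference in edgeR. Integrated stress response genes (29 tested), BCL2 family and apoptosis genes (28), BMP and TGF-beta response genes (28), NF-kB and inflammatory genes (26) and immediate early genes (26) had 0 called differences in edgeR. At an unadjusted p under 0.05, 7.73% of all tested genes were higher and 8.09% lower. In these lists 4, 3, 4, 0 and 0 members were higher and 1, 3, 2, 3 and 0 lower. DESeq2 called 3, 4, 2, 1 and 0 of these genes in either direction, limma voom with library weights called 1, 2, 1, 0 and 0, and edgeR with the length trend removed called 2, 0, 2, 0 and 0. Neither of these tools called an interferon-stimulated gene or a polycomb subunit.

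Markers of cell types other than osteoblasts had 0 called differences in edgeR among 7 haematopoietic, 9 epithelial, 8 endothelial and 9 neural genes tested, against 1, 0, 0 and 0 in DESeq2 and in limma voom with library weights. At an unadjusted p under 0.05 in edgeR, 1 haematopoietic gene, RUNX1 (0.39, adjusted p 0.102), was higher, and the neural genes SYP (-0.61, adjusted p 0.126) and NEFL (-0.26, adjusted p 0.244) were lower. The summed level of the endothelial markers ran from 24.0 to 25.1 CPM in untreated EV, 23.8 to 28.2 CPM in treated EV, 25.7 to 28.8 CPM in untreated MUT and 34.3 to 35.5 CPM in treated MUT. The summed level of the haematopoietic markers ran from 163 to 175 CPM, 122 to 131 CPM, 142 to 176 CPM and 160.5 to 161 CPM in the same order. That of the epithelial markers ran from 816 to 841 CPM, 683 to 821 CPM, 728 to 1012 CPM and 791 to 824 CPM. For the neural markers it was 209 to 212 CPM, 264 to 302 CPM, 188 to 221 CPM and 233 to 262 CPM. Their part in the results was not tested. Of 12 tested osteoblast markers, TNFRSF11B was the called member, and RUNX2 rose in MUT (0.47) with a difference of 0.35 that was not called (adjusted p 0.275, edgeR).

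**Figure D4:**
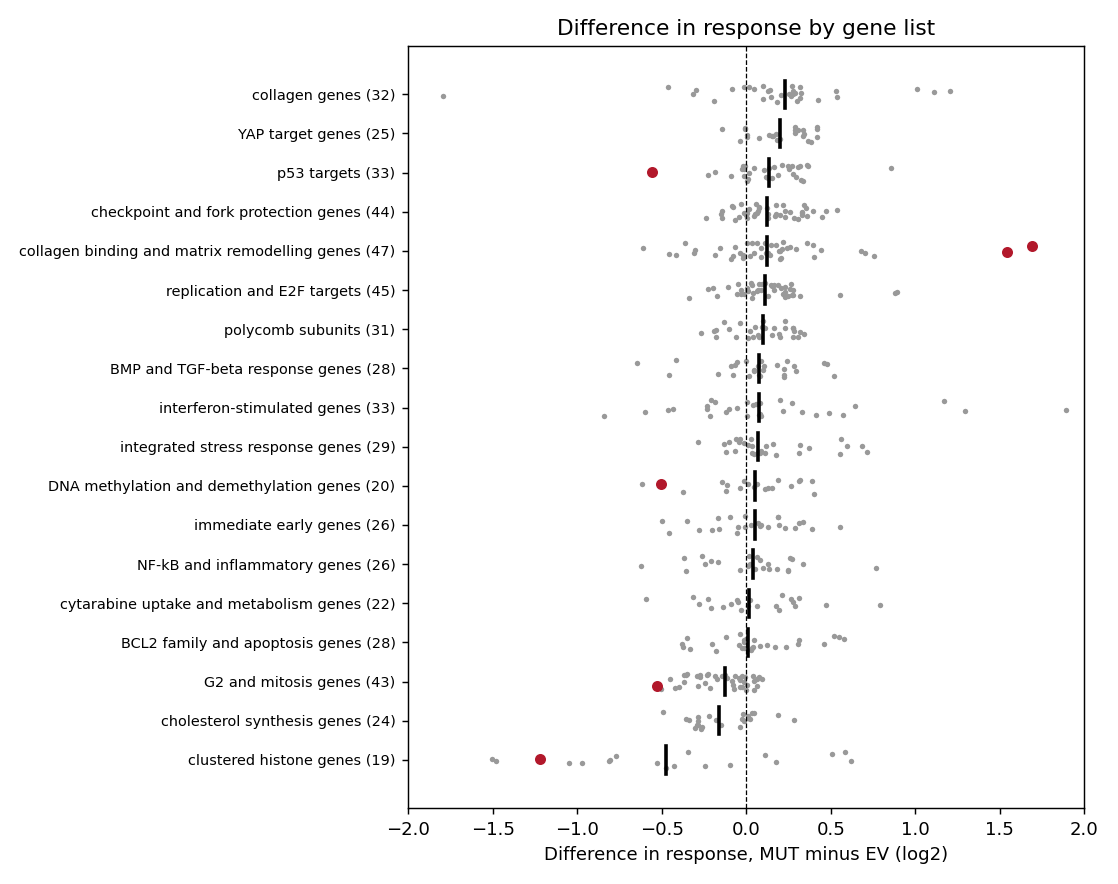
Difference in response (horizontal axis, MUT minus EV, log2) for every tested member of 18 gene lists (vertical axis), with the median of each list as a bar and called genes in colour. Clustered histone genes, cholesterol synthesis genes and genes of G2 and mitosis have the medians below zero, -0.48, -0.16 and -0.12, and 5 members outside the plotted range are not drawn.

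Several of the largest or best known responses to the drug had no called difference between the lines. PADI4, a peptidylarginine deiminase that p53 activates, rose from 0.467, 0.467 and 0.369 to 13, 12.2 and 11.5 CPM (EV) and from 0.802, 0.881 and 0.571 to 20, 17.7 and 17.6 CPM (MUT). The untreated and treated libraries lay far apart in each line, and the difference was -0.18 with a 95% interval of -0.86 to 0.50 (adjusted p 0.856, edgeR). CDKN1A, the p21 inhibitor of cyclin-dependent kinases, rose from 359 ± 3.89 to 789 ± 17.9 CPM (EV) and from 253 ± 20.5 to 663 ± 2.73 CPM (MUT), with a difference of 0.26 (interval 0.078 to 0.43, adjusted p 0.167, edgeR). MDM2, the ubiquitin ligase that degrades p53, rose by 0.43 and 0.78 (difference 0.36, interval 0.018 to 0.70, adjusted p 0.291, edgeR). CEACAM1, an adhesion molecule, rose by 4.01 in EV and 5.46 in MUT, and its interval of 0.38 to 2.52 left a wide range (adjusted p 0.186, edgeR).

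Of 22 tested genes of cytarabine uptake and metabolism, 6 rose and 9 fell in EV, and 9 rose and 8 fell in MUT. No difference was called in edgeR. At an unadjusted p under 0.05, where 7.73% of all tested genes were higher and 8.09% lower, 3 of these 22 were higher and 0 lower. DESeq2 and limma voom with library weights called 0 of them, whereas edgeR with the length trend removed and edgeR without untreated MUT replicate 3 each called DCK as higher (adjusted p 0.0408 and 0.0397). DCK, the kinase that activates the drug, measured 71, 74 and 69.5 CPM in untreated and 59.4, 69.1 and 71.5 CPM in treated EV, and 58.4, 44.2 and 64.6 CPM in untreated and 72.1, 69.6 and 75.2 CPM in treated MUT. The untreated MUT libraries were spread widely, DCK rose in MUT (0.37, adjusted p 0.00373) and was not called in EV (-0.10), and the difference was 0.48 (interval 0.18 to 0.77, adjusted p 0.133, edgeR). CDA, which deaminates cytarabine, rose by 0.87 in EV and 0.90 in MUT with a difference of 0.023 (interval -0.43 to 0.48), and the sign of that difference changed with the scaling. SAMHD1, which hydrolyses the active triphosphate, rose by 0.86 and 0.82 with a difference of -0.047 (interval -0.25 to 0.16). RRM2, a ribonucleotide reductase subunit, had a difference of 0.061 (interval -0.13 to 0.25), and PARP1, a sensor of DNA breaks that fell in both lines, one of 0.12 (interval -0.084 to 0.33).

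Exonic length moved with the difference in response. From the shortest to the longest of the 4 groups by exonic length, the median difference was -0.13, -0.018, 0.056 and 0.13. The median response ran from -0.16 to -0.042 in EV, from -0.29 to 0.10 in MUT and from -0.16 to 0.014 in WT. The called genes followed the same order, with 3, 3, 7 and 10 higher and 6, 2, 0 and 0 lower genes in the 4 groups. Median exonic length was 7880 bases for the 27 of 28 called higher genes with a length, 1797 bases for 10 of the 11 called lower genes and 5047.5 bases for the 16084 of 18226 tested genes with one. Untreated MUT replicates 2 and 3 deviated with length in opposite directions, and treated EV replicates 1 and 2 did so over the longest group. The part of length in the called differences was not tested beyond the fit with the trend removed. In that fit 107 genes were called, 34 of them among the 39.

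**Figure D5:**
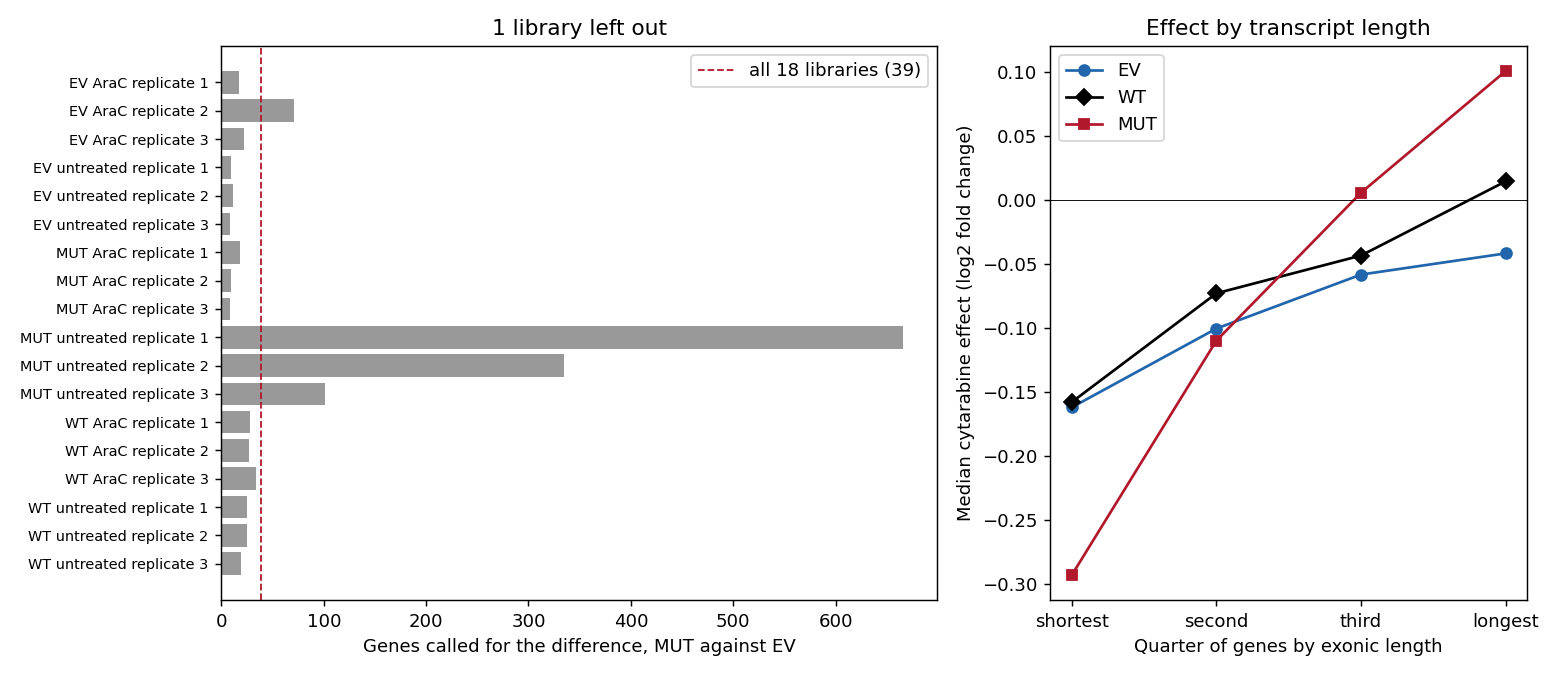
Left, number of genes with a called difference in response (horizontal axis) when each library in turn is left out (vertical axis), with the count from all libraries as a line at 39. Right, median cytarabine response (vertical axis, log2) in EV, WT and MUT for the 4 groups of genes by exonic length (horizontal axis), where MUT runs from -0.29 to 0.10.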

How the data were processed

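Total RNA of cultured U2OS cells was sequenced from 18 libraries, 3 in each of 6 groups given by the labels (EV, MUT and WT, untreated or treated). The submitters' processing notes name CASAVA, STAR 2.6.1d and the build hg38, with no role or order. The counting tool, annotation version and strand setting are not given in the sources used here. The authors deposited estimated counts per gene symbol, of which 71.1% are whole numbers (tolerance 1e-06), and a filtered table of signal values scaled per library by the authors. From the second table only the library factors were taken, for 1 alternative scaling. No column of another sample was found (0). Gene positions are those of the deposited table.

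The estimated counts were rounded and fitted with edgeR 4.0.16 (R 4.3.3) by the quasi-likelihood test on all 18 libraries, with a mean per group, TMM factors and edgeR's filter on low counts. The contrast was the MUT response minus the EV response, with Benjamini-Hochberg adjustment over 18226 genes and a threshold of 0.05. Fitting all groups gives them 1 estimate of the spread. In simulated counts for 18020 genes that drew on these libraries' means, the difference was called for 61 of 67 genes changed by 1 log2 unit. It was called for 18 of 66 changed by 0.5 and for 6 of 17820 unchanged genes. The simulation gave every group the same spread per gene. In the data the common biological coefficient of variation was 0.0398 in untreated EV and 0.216 in untreated MUT. Only genes above a minimum mean level were changed, so these counts may not hold for the data. Between replicates of a group the chi-square per degree of freedom ran from 2.42 to 45.5, so no pair of libraries agreed within sampling noise. Alternatives were DESeq2 1.42.0, limma 3.58.1 voom with library or group weights, other scalings and filters, the 12 libraries alone, a minimum fold change, a replicate block and each library left out. Removal of the length trend (exonic lengths from GENCODE) and leaving out untreated MUT replicates 2 and 3 together were added after seeing the data.

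Genes were named by rule. The rule took called genes whose mean log2 CPM was 1 or more and treated libraries that did not overlap, up to 15 in each direction, genes called without each library, the 6 largest opposite responses, up to 4 genes per list by p and 15 genes of interest. The members and the gene lists were chosen with earlier results of these data known. CPM were computed on the TMM-scaled library totals. Gene lists covered p53, replication, G2 and mitosis, checkpoint, interferon, NF-kB, immediate early, cytarabine metabolism, stress response, apoptosis, DNA methylation, polycomb, matrix, collagen, cholesterol, BMP, YAP and histone genes and markers of 5 cell types.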

Additional observations from a re-analysis of the deposited data

Results flagged for a closer look

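Each of the 39 genes with a called difference in response between MUT and EV is listed here, since the edgeR test of the difference itself set the lines apart. Values in parentheses are the log2 difference, MUT minus EV. Genes that rose in both lines and more in MUT were GOLGA8IP (1.65), DDR2 (1.55), RPS6KA6 (1.19), MATN2 (0.93), PDE5A (0.88), F2RL2 (0.85), CAVIN2 (0.77), NRP1 (0.75), FAM198B (0.64), PKP2 (0.57), FAM84B (0.56), BRI3BP (0.48) and FKBP9 (0.44). Genes that rose in MUT with no called change in EV were RELN (6.72), AL160272.2 (3.18), MMP13 (1.69), SLC16A7 (0.82), SPIN4 (0.75), N4BP2 (0.72), PRKCE (0.71), PM20D2 (0.45) and CHML (0.44). Genes that fell in EV and rose in MUT were PER3 (0.95), INTS2 (0.76) and TNFRSF11B (0.75), and SKP2 (0.45) fell in EV with no called change in MUT. Genes that fell less in MUT were ERBIN (0.49) and ZFP36L1 (0.40), and CD82 (-0.56) rose less. Genes that rose in EV and fell in MUT were QPCTL (-0.55) and AC125611.3 (-10.30), and those that rose in EV with no called change in MUT were IDH1 (-0.50), AAMDC (-0.99) and RRAD (-1.76). Genes that fell in both lines and more in MUT were CCNB1 (-0.53), PPP1R14B (-0.75), TMEM126A (-0.87) and HIST1H2BK (-1.22), and C2orf76 (-1.29) fell in MUT with no called change in EV. The value of RELN is fitted with 0 counts in untreated MUT and is no bound on the change. That of AC125611.3 rests on replicates that lay far apart and is no bound either.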

How the results depend on the processing

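The number of genes with a called difference (39) was 67 with upper-quartile factors, 554 in DESeq2, 132 in limma voom with library weights, 2 in limma voom with group weights, 128 with a mean of at least 50 counts, 1 with the 12 EV and MUT libraries alone, 1 with a minimum absolute log2 fold change of 0.5, 107 with the length trend removed and 16 with untreated MUT replicates 2 and 3 both left out. Leaving out 1 library at a time gave 8 to 666 genes. The cause of these shifts was not tested. RLE factors gave 54, the authors' library factors 41 and no filter on low counts 32. With the minimum fold change, 2788 genes were called for the cytarabine response in EV and 4000 in MUT. The replicate numbers were not taken as pairing the libraries. Of 18 same-numbered pairs, 10 had a correlation of deviations over 0.1 (range -0.18 to 0.45). Pairs with different numbers were not compared, so these correlations cannot exclude pairing. All 3 pairs of treated EV and untreated MUT were over 0.1 (0.20, 0.45 and 0.39). A replicate block gave 25 genes, 24 of them among the 39.

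All 39 genes kept their direction under every alternative. Differences near zero changed sign for 4 named genes. That of CDA was -0.010 with upper-quartile factors, -0.013 with RLE factors, -0.014 in DESeq2, -0.018 with a mean of at least 50 counts and -0.089 to 0.16 with 1 library left out. That of PARP1 was -0.046 with the length trend removed, and that of RRM2 was -0.052 there and -0.0043 to 0.11 with 1 library left out. That of SAMHD1 was 0.056 in limma voom with library weights and 0.092 with untreated MUT replicates 2 and 3 both left out. With 3 libraries a group, an uncalled gene is not shown to respond alike. In the simulation, which gave every group the same spread, differences of 0.5 log2 units were called for 18 of 66 genes.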
